A study of Mus musculus with 12 samples.

Results

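The mitochondrial ribosome, or mitoribosome, is built from mitochondrial rRNA and from proteins that the nucleus encodes, and 76 genes of those proteins were followed here in mouse liver. Members were all genes whose symbol on the array platform is Mrpl or Mrps followed by a number, with or without a letter a, b or c. Each was read through the single-symbol probe set with the highest mean over the 12 arrays, which left 76 of 18193 genes. They were covered by 156 probe sets, and 42 members had more than 1. A further 4 probe sets that the platform joins to a second gene symbol were not used. By their place in the mammalian mitoribosome, 49 members belong to the large subunit and 26 to the small subunit. Despite their symbols, Mrps18a and Mrps30 are large subunit proteins, and Mrps36 is a component of the mitochondrial α-ketoglutarate dehydrogenase complex rather than a ribosomal protein. It was kept because its symbol meets the rule. Of the others, 45 have a counterpart at the same place in bacterial ribosomes and 30 do not, Mrps18a and Mrps18b counting among the 30. Those 30 are called mitochondria-specific.

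Liver RNA was measured on Affymetrix arrays, 1 array per animal, in 4 groups of 3 mice. Wild-type mice (+/+) and mice lacking ATF6α (Atf6a-/-, labelled -/-) received tunicamycin (TM) at 1 mg/kg in 150 mM dextrose, or the dextrose vehicle alone, by intraperitoneal injection, and livers were taken 34 h later. TM stops the attachment of N-linked glycans, so that misfolded proteins build up in the endoplasmic reticulum (ER), and ATF6α is an ER membrane protein whose released fragment is a transcription factor. Ages and sexes varied and are not given per animal. A source field of the labels gives 8 h, but the titles, design and extraction protocol give 34 h. Both genotypes were given the same vehicle, and the allele is carried in the whole animal.

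The mitoribosome translates the few proteins that the mitochondrial genome encodes, all of them hydrophobic subunits of the respiratory chain and ATP synthase. Its proteins are made in the cytosol, imported and assembled on the mitochondrial rRNAs with the help of GTPases, RNA helicases and RNA-modifying enzymes. Hepatocytes are rich in mitochondria.

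Over all probe sets, correlations between arrays lay between 0.9233 and 0.995. Wild-type TM animal 2 lay farthest from the rest of its group, with a root mean square log2 difference of 0.37 from the mean of the other 2 against 0.22 to 0.34 for the other 11 arrays. Atf6 itself was read at 8.42 to 8.54 in wild-type vehicle livers and at 6.60 to 6.88 in Atf6a-/- vehicle livers on the log2 scale. After TM its brightest probe set gave 9.30 to 9.72 in wild-type and 9.23 to 9.81 in Atf6a-/- livers, and its other 2 probe sets were higher in the Atf6a-/- livers by 0.53 and 1.43. The part of Atf6 that the allele lacks is not given in the sources used here, so the genotypes of the TM animals rest on the labels. Xist was high in animal 1 of both vehicle groups and of the Atf6a-/- TM group, and in no wild-type TM animal.

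Stretches upstream of 6 member genes are shown to print a short motif in its setting, in 4 members that rose and 1 that fell in the response described below, beside Mrps18b, which rose most and lacks it. The motif CCGGAAG (searched on both strands, where it also reads CTTCCGG) is a core recognised by ETS family factors such as GABP, a known regulator of mitochondrial genes. It occurred in the 250 bases before the start of 16 of the 67 members with a RefSeq promoter window (23.9%), and in 10.6% of the 14369 windows of all genes. Sequences are the 100 bases before the RefSeq start (GRCm38.p6, gene strand, 5′ to 3′), with the motif in capitals.
Mrps18a (chr17:46110904-46111003, plus strand): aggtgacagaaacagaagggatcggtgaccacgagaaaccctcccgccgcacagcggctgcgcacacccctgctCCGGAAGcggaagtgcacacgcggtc
Mrps26 (chr2:130563657-130563756, plus strand): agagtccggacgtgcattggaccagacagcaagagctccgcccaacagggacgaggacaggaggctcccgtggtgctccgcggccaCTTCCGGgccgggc
Mrpl58 (chr11:115403652-115403751, plus strand): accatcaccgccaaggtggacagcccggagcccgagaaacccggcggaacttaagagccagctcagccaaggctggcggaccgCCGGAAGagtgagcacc
Mrpl52 (chr14:54426809-54426908, plus strand): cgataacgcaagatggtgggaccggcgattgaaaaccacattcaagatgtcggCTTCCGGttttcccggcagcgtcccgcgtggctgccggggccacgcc
Mrpl34 (chr8:71464826-71464925, plus strand): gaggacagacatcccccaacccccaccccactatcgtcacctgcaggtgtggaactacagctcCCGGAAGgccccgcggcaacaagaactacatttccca
Mrps18b (chr17:35916441-35916540, minus strand): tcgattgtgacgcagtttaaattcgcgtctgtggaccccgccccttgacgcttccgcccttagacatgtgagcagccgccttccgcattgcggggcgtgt

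The motif was present in 6 of 30 members that rose in Atf6a-/- livers (20.0%), in 9 of 32 that were not called (28.1%) and in 1 of 5 that fell (20.0%), these shares being a description without a test. Mrpl34, which fell, carries it 37 bases before its start, and Mrps18b, which rose most, does not carry it within the 250 bases. Of the other motifs searched on both strands, the palindromic consensus of NRF1 was found in 4.48% of member windows and 1.25% of all, and the E-box CACGTG bound by MYC in 7.46% and 7.57%. The full-length ER stress element (ERSE) and the ATF4-type element TGATGNAA were found in no member window, against 0.125% and 2.42% of all windows, which says only that these letters are not in the 250 bases searched.

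The members were all well measured. Their means over the 12 arrays ran from 7.25 to 11.0 on the log2 scale, against array medians of 4.64 to 4.71. Animals within a group lay close together, with a median SD over the members of 0.10 in wild-type vehicle, 0.13 in Atf6a-/- vehicle, 0.16 in wild-type TM and 0.10 in Atf6a-/- TM livers (n = 3 each). RMA values of different probe sets are not on one scale of abundance, so each member was compared only with itself.

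**Figure D1:**
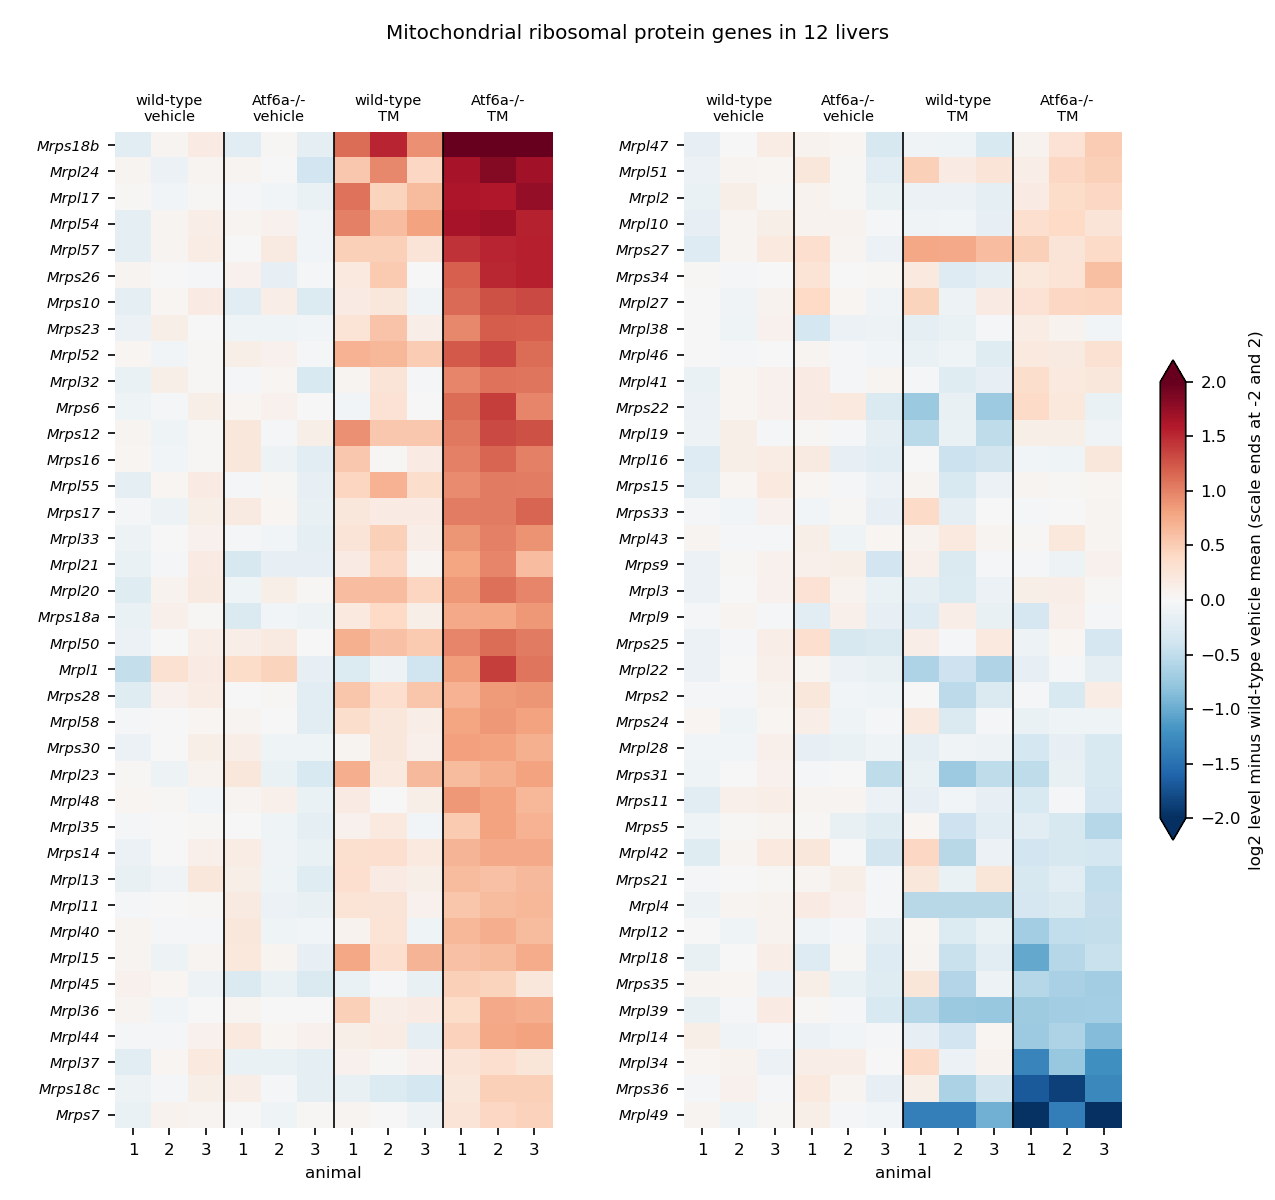
Log2 level of each of the 76 members (rows, ordered by their Atf6a-/- response) in each of the 12 animals (columns), minus the member's wild-type vehicle mean, from the deposited values. The vehicle animals stay near 0, Mrps18b leads the rises in Atf6a-/- TM livers and Mrpl49 the falls, and shifting arrays to Btf3 and Ppia turns the median Atf6a-/- response from 0.38 to -0.14.

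Without stress, the 2 genotypes were compared to find whether the loss of ATF6α alone changes these genes. No member was called, at an adjusted p under 0.05 and a difference over 1.5-fold (limma, Benjamini-Hochberg over 45037 probe sets), where 0.0055% of all genes were called, the 1 gene being Atf6. At an unadjusted p under 0.05 there was 1 member, and the methods' t-test called 0 both unadjusted at their thresholds (0.0605% of all genes higher and 0.0385% lower) and after Benjamini-Hochberg adjustment. Differences ran from -0.25 to 0.22, and 75 of the 76 members had a 95% interval lying wholly within 1.5-fold. The lowest was that of Mrpl45, a protein that tethers the mitoribosome to the inner membrane. It was read at 9.15, 9.11 and 8.97 in the vehicle livers of wild-type mice and at 8.78, 8.93 and 8.78 in those of Atf6a-/- mice, so that the groups did not overlap, but the difference of -0.25 ± 0.10 (SE) had an adjusted p of 1.0. Mrpl1, a protein of the mobile stalk by which tRNA leaves the ribosome, had the highest, at 0.22 ± 0.22 with overlapping groups.

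In wild-type livers, TM changed few members. Of the 76, 9 rose (11.8%) and 2 fell (2.63%), where 3.45% of all genes rose and 3.86% fell. Among the 6028 genes at least as bright as the dimmest member, 8.31% rose and 7.93% fell, so the share of risers was close to that of other well-measured genes. The median difference was 0.07 against -0.02 for all genes. The risers were Mrps18b, Mrpl54, Mrpl17, Mrps27, Mrps12, Mrpl24, Mrpl52, Mrpl50 and Mrpl15, with differences of 0.59 to 1.19, and the members that fell were Mrpl49 (-1.23) and Mrpl39 (-0.69). The methods' t-test, unadjusted at their thresholds, also called 9 higher and 2 lower (3.51% and 4.52% of all genes), and 0 after Benjamini-Hochberg adjustment. With arrays shifted to Btf3 and Ppia, as explained below, 5 were higher and 4 lower (2.91% and 4.69% of all genes), and with the spike-in shift 18 and 1 (10.3% and 2.03%). Without wild-type TM animal 1 the 11 calls came to 7, with Mrpl17 (0.54), Mrps12 (0.54), Mrpl50 (0.55) and Mrpl15 (0.50) no longer called, and Mrpl24 was not called without wild-type TM animal 2 (0.48) or without wild-type vehicle animal 1 (0.67), 2 (0.59) or 3 (0.67).

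In Atf6a-/- livers, TM raised 34 members (44.7%) and lowered 5 (6.58%), where 15.2% of all genes rose and 12.8% fell. Among genes at least as bright as the dimmest member, 29.5% rose and 27.0% fell, so the members stood above this share for rises and below it for falls. The median difference was 0.38 against -0.01 for all genes, and 57 of 76 differences were positive. Every animal of the Atf6a-/- TM group showed the shift. Taken over the members, the median level lay 0.35, 0.41 and 0.47 above the wild-type vehicle mean in its 3 animals, 0.12, 0.01 and -0.01 above it in the wild-type TM animals, and between -0.14 and 0.08 in the 6 vehicle animals. In 43 members all 3 Atf6a-/- TM animals lay above all 3 Atf6a-/- vehicle animals (24.1% of all genes did), and in 12 they lay below (23.7% of all genes).

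The direction depended on what each array was scaled to. The deposited values assume that most probe sets keep their level. With arrays shifted to a common level of Btf3 and Ppia, the reference genes of the PCR assays in the methods, 12 members rose (15.8%) and 17 fell (22.4%) in the Atf6a-/- response, with a median of -0.14, where 7.85% of all genes rose and 42.0% fell. Btf3 itself was 1.13 ± 0.13 higher in Atf6a-/- TM than in Atf6a-/- vehicle livers (adjusted p = 2.75e-05), while Ppia, read through a probe set shared with Gm9234, was at -0.10 ± 0.13 (adjusted p = 0.671). With arrays shifted to the hybridisation spike-ins, whose group means were 9.02, 8.96, 8.70 and 8.47 in wild-type vehicle, Atf6a-/- vehicle, wild-type TM and Atf6a-/- TM arrays, 50 members rose (65.8%) and 3 fell (3.95%), where 35.7% of all genes rose and 7.58% fell. Over all genes the median moved by -0.52 under the first shift and by 0.49 under the second. A shift of every array moves all genes alike. The members' 0.39 relative to all genes in the deposited values is therefore the same under either shift by construction, which tests nothing. Quantile normalization again, which is not such a shift, gave 0.34. Changes below are those of the deposited values unless a shift is named.

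Markers of liver cell types moved with treatment too. Of 9 hepatocyte markers measured, 7 fell in the Atf6a-/- response, among them Ttr, Apoa1 and Cps1, while Alb was at -0.48 and not called, and the summed level of the 9 ran from 17.38 to 17.46 in wild-type vehicle livers and from 16.10 to 16.59 in Atf6a-/- TM livers. Of 6 neutrophil markers, S100a8 (4.67) and S100a9 (3.73) rose, and the other 4, none of them called, ran from -0.18 for Ngp to 0.12 for Camp. The summed level of the 6 lay between 7.74 and 7.93 in Atf6a-/- vehicle, 7.90 and 8.07 in wild-type vehicle, 8.49 and 9.30 in wild-type TM, and 9.35 and 11.35 in Atf6a-/- TM livers, with Mpo and Camp not above the array median on any array. Of 10 Kupffer cell and macrophage markers, 2 rose and 6 fell. Of all genes, 15.2% rose and 12.8% fell in the Atf6a-/- response. In bulk tissue, fewer cells of a type and less RNA per cell cannot be told apart, and the part of cell composition in the members' response was not tested.

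Mrps18b, 1 of 3 mammalian counterparts of the bacterial small subunit protein S18, had the largest rise. Its levels were 9.33, 9.60 and 9.71 in wild-type vehicle, 9.33, 9.57 and 9.37 in Atf6a-/- vehicle, 10.67, 11.08 and 10.46 in wild-type TM, and 11.85, 12.17 and 12.18 in Atf6a-/- TM livers. The TM groups of both genotypes lay above the vehicle groups, and the Atf6a-/- TM animals above the wild-type ones. In wild-type livers the rise was 1.19 ± 0.16 (2.28-fold, adjusted p = 0.00098), and in Atf6a-/- livers it came to 2.65 ± 0.16 (6.26-fold, adjusted p = 2.76e-07). The response differed between genotypes by 1.46 ± 0.23 (adjusted p = 0.00184 for the interaction).

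Its 2 paralogs responded less. Mrps18a, the S18 homologue that sits in the large subunit, was at 9.01 ± 0.12 (SD) in wild-type vehicle, 8.86 ± 0.12 in Atf6a-/- vehicle, 9.25 ± 0.15 in wild-type TM and 9.81 ± 0.06 in Atf6a-/- TM livers, and rose by 0.95 ± 0.11 (SE) in the Atf6a-/- response. Mrps18c, which takes the place of bacterial S18 in the small subunit, was at 9.79 ± 0.11 (SD), 9.76 ± 0.17, 9.53 ± 0.10 and 10.18 ± 0.14 in the same order. Neither its response of -0.25 in wild-type livers (adjusted p = 0.261) nor that of 0.42 in Atf6a-/- livers (adjusted p = 0.0139, below 1.5-fold; -0.09 with the Btf3 and Ppia shift) was called. The interaction was called for Mrps18a (0.71) and Mrps18c (0.68) as well, but for both it was lost with the Btf3 and Ppia shift, and for Mrps18c also without wild-type TM animal 3 (0.63) or wild-type vehicle animal 3 (0.62).

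Of the large subunit, 24 of 49 members rose (49.0%) and 4 fell (8.16%) in Atf6a-/- livers, with a median of 0.57. There 15.2% of all genes rose and 12.8% fell, and 29.5% and 27.0% of genes at least as bright as the dimmest member. Mrpl24 and Mrpl17, whose bacterial counterparts line the exit of the peptide tunnel, led the rises of the large subunit. Mrpl24 was at 10.50, 10.33 and 10.49 in wild-type vehicle, 10.49, 10.44 and 10.06 in Atf6a-/- vehicle, 10.98, 11.40 and 10.86 in wild-type TM, and 12.09, 12.27 and 12.12 in Atf6a-/- TM livers. It rose by 1.83 ± 0.15 in Atf6a-/- livers (3.56-fold, adjusted p = 2.33e-06). In wild-type livers it rose by 0.64 ± 0.15 (adjusted p = 0.0234), a call lost without any 1 of 4 wild-type animals, as given above. Mrpl17 rose by 1.73 ± 0.14 and 0.72 ± 0.14, but its other 2 probe sets, both dimmer, were at -0.08 and -0.05 in Atf6a-/- livers, and the mean over its probe sets gave 0.53.

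Mitochondria-specific proteins of the large subunit rose as well. Mrpl57 lay between 9.84 and 10.22 in all 6 vehicle animals, between 10.30 and 10.52 in wild-type TM and between 11.49 and 11.59 in Atf6a-/- TM livers. Its rise of 1.47 ± 0.11 in Atf6a-/- livers (2.76-fold, adjusted p = 1.41e-06) stood beside 0.40 ± 0.11 in wild-type livers, which was not called (adjusted p = 0.0573). The call of that rise held, but the interaction of Mrpl57 was lost with the mean over its probe sets and with the Btf3 and Ppia shift. Its difference between genotypes after TM was also not called with the mean over its probe sets. Mrpl54 rose by 1.61 ± 0.12 and 0.80 ± 0.12, and Mrpl52 by 1.18 ± 0.09 and 0.62 ± 0.09. Mrpl58, a peptidyl-tRNA hydrolase built into the large subunit that releases stalled peptides, rose by 0.87 ± 0.10 in Atf6a-/- livers and was at 0.24 ± 0.10 in wild-type livers (adjusted p = 0.217). Its call in Atf6a-/- livers was lost with the mean over its probe sets and with the Btf3 and Ppia shift. Of bacterial type, Mrpl32, which in yeast and mouse has to be cleaved by the m-AAA protease before it can join the ribosome, rose by 1.14 ± 0.12 and was at 0.08 ± 0.12 in wild-type livers.

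Mrpl12, the counterpart of the stalk protein L7/L12 that recruits translation factors, was lower in Atf6a-/- TM livers, in the deposited values. Its levels were 10.86, 10.89 and 10.75 in Atf6a-/- vehicle and 10.23, 10.44 and 10.46 in Atf6a-/- TM livers, which did not overlap. The difference of -0.46 ± 0.11 (adjusted p = 0.00563) was below 1.5-fold and so not called, and with the spike-in shift it was 0.03. Mrpl45 was higher by 0.62 ± 0.10 in Atf6a-/- livers (adjusted p = 0.000361), a call that was lost without Atf6a-/- TM animal 1 (0.58).

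**Figure D2:**
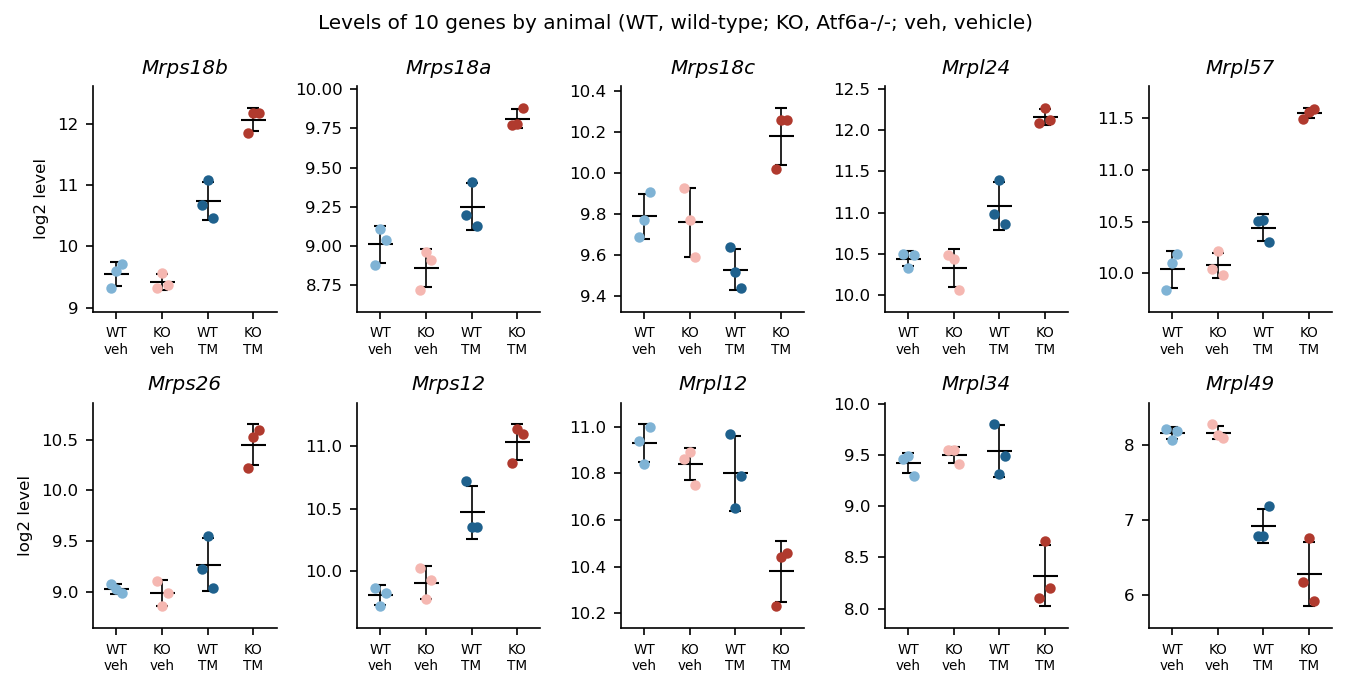
Log2 level (y axis, own scale per gene) of 10 members in the 4 groups (x axis), with a point per animal, a bar at the mean and whiskers of 1 SD (n = 3). Mrps18b, Mrpl24 and Mrpl57 are highest in Atf6a-/- TM livers, Mrpl34 and Mrpl12 lowest there, and Mrpl49 is lower in both TM groups.

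Of the small subunit, 10 of 26 members rose in Atf6a-/- livers (38.5%) and none fell at the same threshold, with a median of 0.27. There 15.2% of all genes rose and 12.8% fell, and 29.5% and 27.0% of genes at least as bright as the dimmest member. Besides Mrps18b the small subunit members that rose were Mrps26, Mrps10, Mrps23, Mrps6, Mrps12, Mrps16, Mrps17, Mrps28 and Mrps14. Mrps26, found only in mitochondria, was at 9.08, 9.03 and 8.99 in wild-type vehicle, 9.11, 8.86 and 8.99 in Atf6a-/- vehicle, 9.23, 9.55 and 9.04 in wild-type TM, and 10.22, 10.53 and 10.59 in Atf6a-/- TM livers. Only the last group stood apart from the others. The rise was 1.46 ± 0.14 (2.75-fold, adjusted p = 7.51e-06), beside 0.24 ± 0.14 in wild-type livers (adjusted p = 0.419).

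Mrps10, counterpart of bacterial S10, rose by 1.36 ± 0.14 in Atf6a-/- livers and was at 0.10 ± 0.14 in wild-type livers. Both of its probe sets rose in Atf6a-/- livers, the dimmer by 0.87. Mrps6 rose on both of its probe sets too, by 1.11 and 1.34. Mrps12, counterpart of S12 in the decoding centre, rose in both genotypes, by 0.66 ± 0.12 in the wild type and 1.11 ± 0.12 without ATF6α, and the interaction was not called (adjusted p = 0.143). Mrps27, an RNA-binding pentatricopeptide repeat protein, was called in wild-type livers alone, at 0.72 ± 0.14 against 0.28 ± 0.14 in Atf6a-/- livers, but the difference between these responses was not called (-0.43, adjusted p = 0.232).

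Members of bacterial type and members found only in mitochondria were counted apart. In Atf6a-/- livers 21 of 45 of the first rose and 2 fell, with a median of 0.39, and 13 of 30 of the second rose and 2 fell, with a median of 0.38. The large subunit had 49.0% of its members rise, with a median of 0.57, and the small subunit 38.5%, with a median of 0.27. In that response 15.2% of all genes rose and 12.8% fell, and 29.5% and 27.0% of genes at least as bright as the dimmest member. After TM, 13 of 49 large (26.5%) and 9 of 26 small subunit members (34.6%) were higher in Atf6a-/- than in wild-type livers. Of all genes 11.3% were higher, and of those bright genes 21.3%. No difference between these classes was tested.

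The 5 members that fell in Atf6a-/- livers were Mrpl49, Mrps36, Mrpl34, Mrpl14 and Mrpl39. Mrpl49, a mitochondria-specific large subunit protein, was at 8.21, 8.06 and 8.18 in wild-type vehicle, 8.27, 8.13 and 8.09 in Atf6a-/- vehicle, 6.78, 6.78 and 7.19 in wild-type TM, and 6.17, 6.76 and 5.92 in Atf6a-/- TM livers. It fell by 1.23 ± 0.18 on the log2 scale in wild-type livers (adjusted p = 0.00166). In Atf6a-/- livers it fell by 1.88 ± 0.18 (adjusted p = 9.18e-06), and the responses were not called different (adjusted p = 0.163). Its second probe set fell by 0.73 in Atf6a-/- livers.

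Mrpl34, counterpart of bacterial L34, fell only in the Atf6a-/- livers by this test. It was at 9.46, 9.49 and 9.30 in wild-type vehicle, 9.55, 9.55 and 9.41 in Atf6a-/- vehicle, 9.80, 9.31 and 9.49 in wild-type TM, and 8.10, 8.66 and 8.20 in Atf6a-/- TM livers. The Atf6a-/- TM animals lay below all others. Its Atf6a-/- response was -1.18 ± 0.15 and its wild-type response 0.12 ± 0.15, and the interaction of -1.30 ± 0.22 was called (adjusted p = 0.00263). Mrps36, the dehydrogenase component, was also called lower in Atf6a-/- livers alone, with levels of 8.53, 8.38 and 8.17 in Atf6a-/- vehicle and 6.65, 6.47 and 7.04 in Atf6a-/- TM livers. Its response was -1.64 ± 0.19 and its interaction -1.34 ± 0.26 (adjusted p = 0.00663). In wild-type livers it was at 8.29, 8.42 and 8.29 after vehicle and 8.44, 7.70 and 7.97 after TM, a response of -0.30 ± 0.19 (adjusted p = 0.465). Mrpl39, which fell by 0.69 in the wild type and by 0.59 without ATF6α (by 0.53 and no longer called without Atf6a-/- vehicle animal 1), was at 10.06 to 10.09 in Atf6a-/- TM livers and at 10.01 to 10.20 in wild-type TM livers, so the 2 TM groups overlapped.

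The genotypes were then compared after TM. In Atf6a-/- livers 22 members were higher (28.9%) and 3 lower (3.95%), where 11.3% of all genes were higher and 8.45% lower, and 21.3% and 19.6% of genes at least as bright as the dimmest member. The median difference was 0.42 against 0.00 for all genes, and 58 of 76 members were higher. With the Btf3 and Ppia shift there were 7 higher and 12 lower (4.67% and 24.5% of all genes), with a median of -0.01, and with the spike-in shift 42 and 2 (17.9% and 6.38%). Without wild-type TM animal 2 the counts were 25 and 6, and without wild-type TM animal 3 they were 16 and 2. The methods' t-test called 21 higher and 2 lower unadjusted at their thresholds (10.1% and 8.02% of all genes). After Benjamini-Hochberg adjustment it called 6, against 730 of all 18193 genes. Mrpl1 had the largest difference, at 6.71, 6.89 and 6.59 in wild-type TM and 7.82, 8.37 and 8.06 in Atf6a-/- TM livers. That difference of 1.35 ± 0.22 (2.55-fold, adjusted p = 0.000875) came with scattered vehicle values of 6.52 to 7.43, and the mean over its 3 probe sets gave 0.43. Mrps18b (1.33), Mrps26 (1.17), Mrps10 (1.14), Mrpl57 (1.11), Mrpl24 (1.08), Mrps6 (1.08), Mrpl32 (0.95), Mrpl17 (0.94) and Mrps17 (0.90) followed. Lower were Mrps36 (-1.31), Mrpl34 (-1.22) and Mrpl49 (-0.63), the last no longer called without wild-type TM animal 3 (-0.50), Atf6a-/- TM animal 1 (-0.58) or Atf6a-/- TM animal 3 (-0.45).

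The interaction asks directly whether the TM response differed between genotypes. It was called for 24 of 76 members, 22 with a more positive response in Atf6a-/- livers (28.9%) and 2 with a more negative one (2.63%), where 7.56% and 6.69% of all genes were called, and 14.8% and 15.9% of genes at least as bright as the dimmest member. The median was 0.39 against 0.01 for all genes, and in 60 of 76 members the Atf6a-/- response was the more positive. Of the 34 members that rose in Atf6a-/- livers, 21 had a called interaction and 13 did not. Among the 13 were Mrpl52, Mrpl50, Mrpl15 and Mrps12, which also rose in wild-type livers. The counts came to 4 more positive and 8 more negative with the Btf3 and Ppia shift (5.26% and 10.5%, against 2.46% and 14.3% of all genes), and to 27 and 5 without wild-type TM animal 2.

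**Figure D3:**
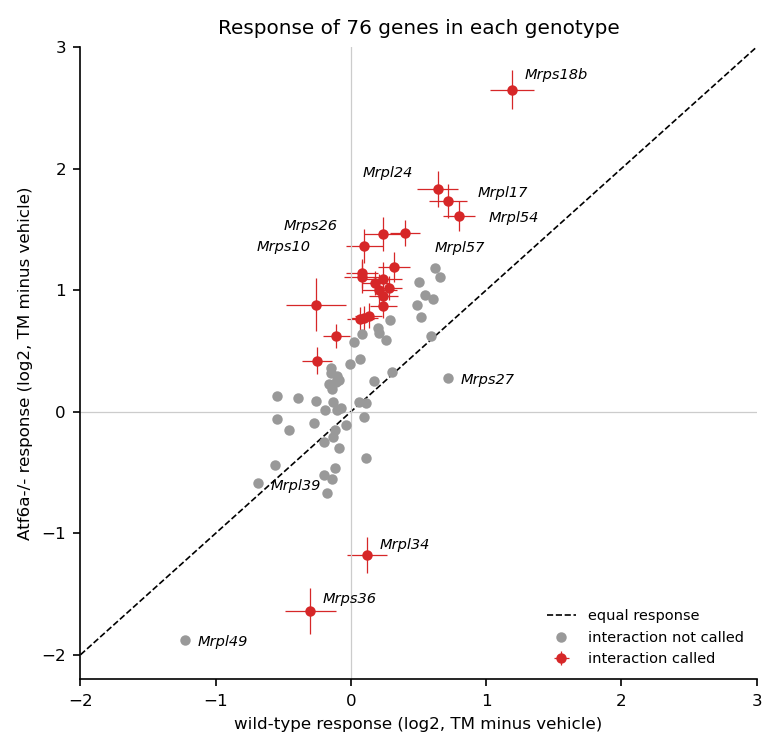
TM response (log2, TM minus vehicle) of each of the 76 members in Atf6a-/- livers (y axis) against wild-type livers (x axis), in the deposited values; red points have a called interaction and carry bars of 1 SE on both axes, and the dashed line marks equal responses. Most points lie above the line (60 of 76), with Mrps18b at 1.19 and 2.65, while Mrps36 and Mrpl34 lie well below it, and with the Btf3 and Ppia shift the median interaction is -0.05.

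Genes that build and serve the mitoribosome were read beside the members. Of 20 mitoribosome assembly and rRNA modification genes, 12 rose and 2 fell in Atf6a-/- livers, with a median of 0.67, and 2 rose in wild-type livers. Of all genes, 15.2% rose and 12.8% fell in Atf6a-/- livers, and 3.45% rose in wild-type livers. Among genes at least as bright as the dimmest member, these shares were 29.5%, 27.0% and 8.31%. Ddx28, an RNA helicase needed for large subunit assembly, was at 7.73, 7.82 and 7.81 in Atf6a-/- vehicle and 10.02, 10.66 and 10.43 in Atf6a-/- TM livers, a rise of 2.59 ± 0.22 (adjusted p = 3.08e-06). In wild-type livers it rose by 1.15 ± 0.22, and the interaction was called (1.43, adjusted p = 0.0115). Tfb1m, the methyltransferase of the small rRNA, rose by 1.62 ± 0.19 in wild-type livers and by 1.92 ± 0.19 without ATF6α. Nsun4 and Mrm2, an rRNA cytosine methyltransferase and an rRNA ribose methyltransferase, fell in Atf6a-/- livers by 0.63 and 0.69 on the log2 scale, but by 0.55 and 0.51 and no longer called without Atf6a-/- TM animal 3. With the Btf3 and Ppia shift 4 of the 20 rose and 4 fell, where 7.85% of all genes rose and 42.0% fell.

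Translation factors were divided. Of 10 measured, 2 rose (20.0%) and 3 fell (30.0%) in Atf6a-/- livers, where 15.2% of all genes rose and 12.8% fell. Among genes at least as bright as the dimmest member, 29.5% rose and 27.0% fell. Mrrf, the ribosome recycling factor, rose from between 8.62 and 8.71 in Atf6a-/- vehicle to between 9.25 and 9.51 in Atf6a-/- TM livers, by 0.74 ± 0.09 (adjusted p = 4.35e-05), and its interaction was called (0.89). Both calls were lost with the Btf3 and Ppia shift (0.22 and 0.45). Tsfm, the exchange factor of the elongation factor EF-Tu, rose by 0.62 ± 0.14, and was not called without Atf6a-/- TM animal 1 (0.51). Its call was also lost with the Btf3 and Ppia shift (0.11) and with the mean over its probe sets (0.23). Gfm1, the translocase EF-G1, fell by 1.22 ± 0.20 without ATF6α and by 0.95 ± 0.20 in the wild type, where it was not called without wild-type vehicle animal 3 (-0.82). Mtif3, an initiation factor, fell in Atf6a-/- livers by 0.72 (-0.53 and not called without Atf6a-/- TM animal 3), and Mtrf1l, a release factor, by 0.68 (-0.56 and not called without Atf6a-/- vehicle animal 2). The calls of Mtif3 and Mtrf1l were also lost with the spike-in shift (-0.23 and -0.19). Of 4 further mitoribosomal proteins under other symbols, none was called in either response, and Gadd45gip1 alone had a called interaction (0.60, adjusted p = 0.0451), lost without Atf6a-/- TM animal 2 (0.48) and with most other animals left out.

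Mitochondrial transcription and the factors that drive mitochondrial biogenesis gave mixed directions. Of 10 transcription and RNA handling genes, 5 rose and 2 fell in Atf6a-/- livers, among them a rise of Tfb2m (0.93 ± 0.12), the promoter melting factor of the mitochondrial polymerase, and falls of Tfam (-0.75 ± 0.12), the DNA packaging factor, and of Lrpprc (-0.86 ± 0.18), which stabilises mitochondrial mRNAs. Of 9 biogenesis factors 3 rose and 2 fell. Of all genes, 15.2% rose and 12.8% fell in that response. Among genes at least as bright as the dimmest member, 29.5% rose and 27.0% fell. The shares of the biogenesis factors were near those of the bright genes, and no difference from them was tested for either list. Ppargc1a, encoding the co-activator PGC-1α, was at 7.90, 7.70 and 6.40 in Atf6a-/- vehicle and 3.66, 3.81 and 4.37 in Atf6a-/- TM livers, a response of -3.39 ± 0.41 (adjusted p = 4.7e-05), while it was 0.53 ± 0.41 in wild-type livers. Ppargc1b fell likewise (-2.72 ± 0.23). The third family member, Pprc1, rose by 1.91 ± 0.30, and Nrf1, a transcription factor of nuclear genes for mitochondrial proteins, by 0.84 ± 0.19. The call of Nrf1 was lost with the mean over its probe sets (0.45) and with the Btf3 and Ppia shift (0.32). Gabpa, the DNA-binding part of GABP, was at -0.01 ± 0.13 (adjusted p = 0.965). Myc, which drives ribosome production, rose in both genotypes, by 1.66 ± 0.33 and 3.60 ± 0.33.

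The members were last set beside the cytosolic ribosome and the respiratory chain. Of 46 cytosolic ribosomal protein genes, 35 rose (76.1%) and 0 fell in Atf6a-/- livers (median 0.89). In wild-type livers 14 rose (30.4%) and 1 fell (median 0.49). Of 80 respiratory chain subunits, a list that takes in ATP synthase, 2 rose (2.5%) and 24 fell (30.0%) in Atf6a-/- livers (median -0.31). In wild-type livers 0 rose and 1 fell (median -0.20). Of all genes, 15.2% rose and 12.8% fell in Atf6a-/- livers, and 3.45% and 3.86% in wild-type livers. Among genes at least as bright as the dimmest member, 29.5% rose and 27.0% fell in Atf6a-/- livers. The 30.0% of subunits that fell was near the latter share. The mitoribosomal members lay between the cytosolic ribosome and respiratory chain lists in Atf6a-/- livers, at a median of 0.38. In wild-type livers they lay near all genes, at 0.07. The order of the 3 medians cannot depend on a shift of whole arrays, which moves all genes alike, and no difference between the lists was tested.

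**Figure D4:**
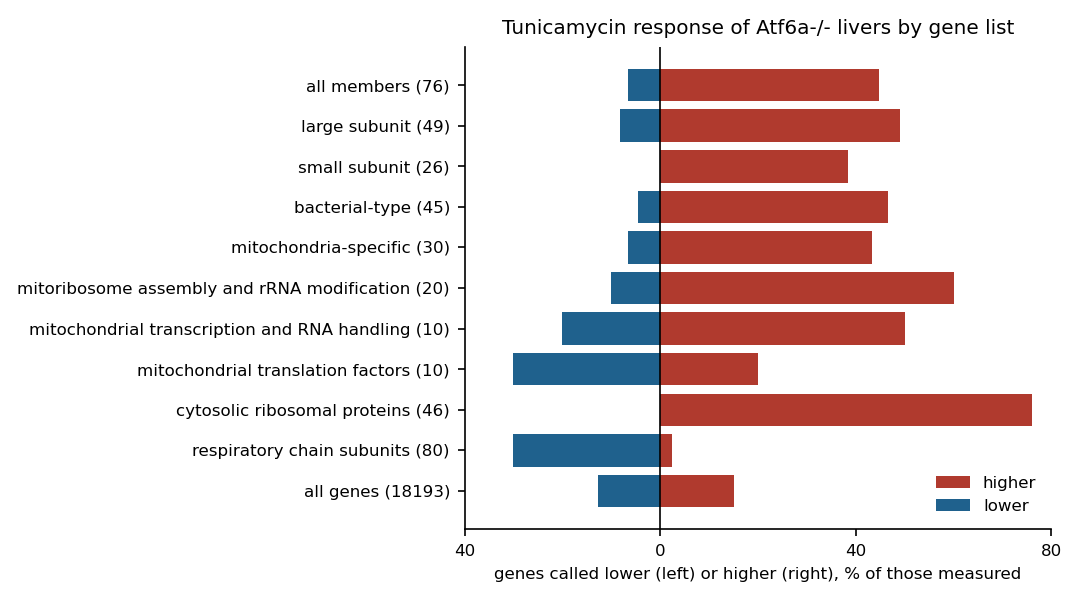
Share of each gene list (y axis, number measured in brackets) called higher (right, red) or lower (left, blue) in the TM response of Atf6a-/- livers, in percent (x axis), in the deposited values. Members rose in 44.7% and fell in 6.58%, cytosolic ribosomal protein genes rose in 76.1%, and respiratory chain subunits fell in 30.0%. Of all genes 15.2% rose and 12.8% fell, and of genes at least as bright as the dimmest member 29.5% and 27.0%. With the Btf3 and Ppia shift 12 members rise and 17 fall (15.8% and 22.4%), against 7.85% and 42.0% of all genes.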

How the data were processed

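Liver RNA of 12 mice was hybridised to 1 Affymetrix array each. The deposited values are log2 expression that the authors made with RMA (affy and limma are named in the submitters' processing notes, with no versions), and they were used as deposited. RMA equalises the distributions of arrays, so a change common to most genes is not seen. Of 45101 probe sets, 64 controls were left out. The platform table gave 34945 probe sets 1 symbol, 932 several and 9160 none.

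One mean per group was fitted to all 45037 probe sets with lmFit, contrasts.fit and eBayes of limma 3.58.1 (R 4.3.3), two-sided, with Benjamini-Hochberg adjustment in each of 5 contrasts. A call required an adjusted p under 0.05 and over 1.5-fold. A ± is an SD where named so and otherwise a standard error. Fits were tested on simulated data. Python 3.11.15 with pandas 2.3.3 made the tables.

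The members, gene lists and tests were chosen with earlier results of these data known. Named members were the up to 10 largest rises and falls among those called in each contrast (where under 2 were called, the 2 largest differences) and 7 named for their roles (Mrps18a, Mrps18b, Mrps18c, Mrpl12, Mrpl45, Mrps12 and Mrps36); of other lists, up to 2 each way. Some genes of other lists, such as Mtrf1l and Nrf1, were named outside this rule. They, Mrpl58, Gabpa and the promoters shown were chosen after their values were seen.

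Further lists held markers of lymphocytes (0 rose and 1 fell of 7 in Atf6a-/- livers), endothelial cells (0 and 2 of 7), stellate cells and fibroblasts (0 and 2 of 7), cholangiocytes (0 and 0 of 4) and red cells (0 and 1 of 2).

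The alternatives were quantile normalization again, array median centring, spike-in and Btf3 with Ppia shifts, a filter on dim probe sets, other probe sets per gene, the groups compared alone, the methods' t-test after Benjamini-Hochberg adjustment (and, chosen after seeing the data, unadjusted at their thresholds), Xist as a covariate, animal number as a block and each animal left out. The number of arrays limits the precision.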

Additional observations from a re-analysis of the deposited data

Results flagged for a closer look

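For 24 members the TM response differed between the genotypes by the interaction test (limma, adjusted p under 0.05 and over 1.5-fold), and the difference between the responses, Atf6a-/- minus wild-type on the log2 scale, is given for each. Of small subunit members it was 1.46 for Mrps18b, 1.26 for Mrps10, 1.22 for Mrps26, 1.03 for Mrps6, 0.88 for Mrps17, 0.87 for Mrps23, 0.85 for Mrps16 and 0.68 for Mrps18c.

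Of large subunit members with a bacterial counterpart it was 1.19 for Mrpl24, 1.13 for Mrpl1, 1.05 for Mrpl32, 1.01 for Mrpl17, 0.79 for Mrpl21, 0.74 for Mrpl33 and 0.69 for Mrpl35. Of the mitochondria-specific proteins it was 1.07 for Mrpl57, 0.80 for Mrpl54, 0.73 for Mrpl45, 0.71 for Mrps18a, 0.68 for Mrpl48, 0.66 for Mrps30 and 0.64 for Mrpl58. It was negative for Mrpl34 (-1.30) and for Mrps36 (-1.34). Of the 22 positive calls 18 held without any 1 animal and 4 under every alternative, and both negative calls held under every alternative.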

How the results depend on the processing

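In the Atf6a-/- response 30 of 34 rises and 4 of 5 falls held without any 1 animal, and 11 and 3 held under every alternative. In the wild-type response 4 of 9 rises and 2 of 2 falls held without any 1 animal, and none of either did under every alternative. With the spike-in shift, called members numbered 19 in the wild-type response and 44 between genotypes after TM, and the medians were 0.39 (wild-type response), 0.87 (Atf6a-/- response), 0.65 (genotypes after TM) and 0.56 (interaction). With the Btf3 and Ppia shift the medians turned to -0.14 (Atf6a-/- response), -0.01 (genotypes after TM) and -0.05 (interaction), and 12 members had a called interaction. A shift of every array moves all genes alike, so this follows from its construction. With the mean of all probe sets of a gene, 6 members were called in the wild-type response, and the medians were 0.27 in the Atf6a-/- response and 0.28 between genotypes after TM. Of 41 further probe sets of members called in the Atf6a-/- response, 11 had the same call, 30 none and 0 the opposite one. After adjustment the methods' t-test called 0 members in the wild-type response and 6 between genotypes after TM (11 and 23 unadjusted at their thresholds). Of all 18193 genes it called 1 and 730 after adjustment. Without a fold threshold 47 members differed between genotypes after TM, against 4572 of all genes. With an animal left out, called members ranged from 7 to 13 (wild-type response, 7 without wild-type TM animal 1), 37 to 39 (Atf6a-/- response), 18 to 31 (genotypes after TM), 0 to 0 (genotypes after vehicle) and 20 to 32 (interaction), and the medians from 0.02 to 0.09, 0.31 to 0.45, 0.37 to 0.45, -0.07 to 0.03 and 0.34 to 0.47. The animal number as a replicate block left these counts at 11, 39, 25, 0 and 24, and the numbers were not taken to pair the animals. Deviations from the group means correlated at over 0.1 in 8 of 18 same-numbered pairs (-0.18 to 0.373) and in 5 of 36 other pairs (-0.353 to 0.221), and the labels do not say what a number shares. For the 79 results of the 26 members run singly, 93 values lost a call, 17 gained one and no called value changed sign. The cause of these losses was not tested. Array probe sets at the 3′ end show transcript level only, not protein, and the number of animals set a median SE of 0.12 for a difference and 0.17 for an interaction.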
